A study of Carassius auratus with 10 samples.

Results

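The genes described here code for integrins and for the proteins of focal adhesions in cultured radial glial cells (RGCs) of the goldfish, *Carassius auratus*. Members were all gene symbols that start with the name of an integrin alpha or beta subunit (*itga*, *itgb*), a talin (*tln*), vinculin (*vcl*), paxillin (*pxn*), a kinase of the FAK family (*ptk2*), a parvin (*parv*), zyxin (*zyx*) or a kindlin (*fermt*), together with the integrin-linked kinase *ilk*. This gave 43 members of 17474 gene symbols, carried by 148 of 170956 unigenes, the contigs of the transcriptome that the authors assembled de novo. RGCs are progenitor glia of the fish brain. The cultures were grown from the hypothalamus and telencephalon of adult female goldfish in medium with serum and were used at passage 3. For the exposure, the paper states that SNa was diluted in serum-free medium, and it does not describe the medium of the other groups. The labels name 3 cultures exposed to 1000 nM secretoneurin A (SNa), a neuropeptide cut from secretogranin II, 3 cultures exposed to 10 µM of a compound given only as SKF, both for 24 h, and 4 untreated control cultures. By the labels, 1 of the control cultures has a title of another form and 1 sequencing lane, while every other culture has 2. Whether that culture entered the control pool is not stated, and its part in the differences below cannot be told apart. No strain or genetic change is named for any group.

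Integrins are receptors made of 1 alpha and 1 beta subunit that bind proteins of the extracellular matrix outside the cell. Talins and kindlins bind the tails of the beta subunits and switch the receptors to their active state, and vinculin, paxillin, zyxin, parvins and the kinases FAK and ILK gather at the same sites, the focal adhesions, and couple them to actin and to signaling. In mammals, radial glia hold to the basal lamina through laminin receptors, and some alpha V integrins release active TGF-beta from its latent form.

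The deposited tables hold 1 value per group and unigene, so each group is 1 pool of cultures, no SD can be given, and no difference below has a replicate check. The values gave back the pooled reads, 64778968 in the SNa pool, 86711702 in the SKF pool and 147886694 in the control pool. Levels are given as CPM, the reads of a gene scaled to 1000000 reads of its pool. Fold changes are of the normalized counts, as log2, with a 95% interval in parentheses that covers counting error only. A gene is called higher or lower where its log2 fold change lay above 0.5 or below -0.5, with a mean normalized count of at least 10 over the pools, and neither word stands for a test. Of the 43 members, 40 passed this minimum and 3 did not (*itga2b*, *itga7* and *itgb1b.2*, each with at most 16 reads in any pool). Together the members took 0.741% of the reads of the SNa pool, 0.742% of the SKF pool and 0.605% of the control pool.

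**Figure D1:**
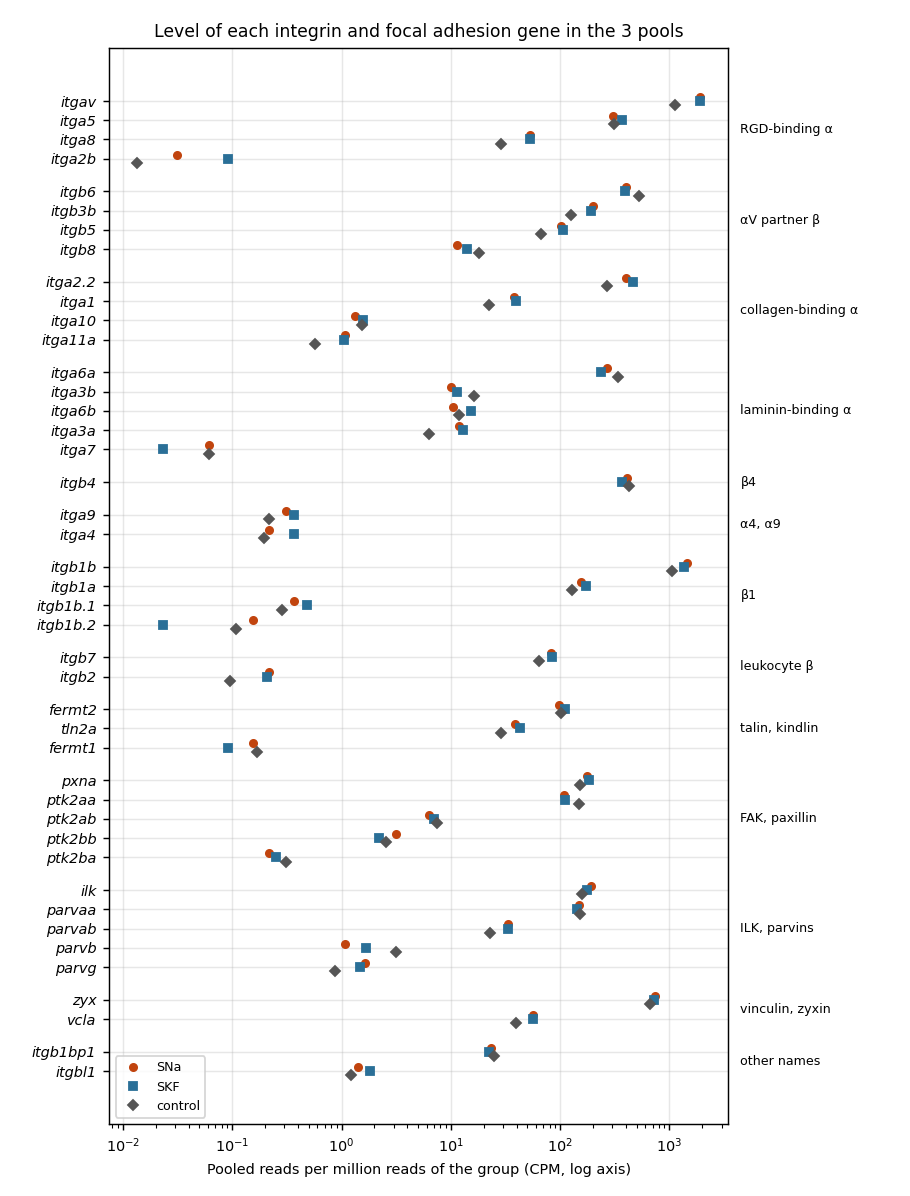
Level of each of the 43 members in CPM (log axis) in the SNa, SKF and control pools, with 1 point per pool and no error bar because each group is 1 pool. *itgav* stood at 1897 CPM in the SNa pool, 1899 CPM in the SKF pool and 1130.0 CPM in the control pool; reads are not corrected for transcript length, so levels of different genes cannot be ranked.

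Markers of several cell types differed between the pools and are given before the members. Beside these counts, 12.4% of all gene symbols were higher and 14.5% lower for SNa, and 16.4% higher and 14.3% lower for SKF. Of 8 radial glia markers found of 10 looked for, 6 were lower in the SNa pool and 6 in the SKF pool, with summed levels of 4059 CPM in the SNa pool, 4021 CPM in the SKF pool and 6858 CPM in the control pool. The RGC marker *gfap* was present in every pool, at 1134 CPM in the SNa pool, 1092 in the SKF pool and 1622 in the control pool. Genes of brain lipid binding protein, the study's other RGC marker, lay further below. *fabp7a* stood at 10.0 CPM in the SNa pool, 10.6 in the SKF pool and 303 in the control pool. Its log2 fold changes were -4.93 for SNa and -4.84 for SKF. *fabp7b* stood at 151 CPM in the SNa pool, 165 in the SKF pool and 699 in the control pool. Its values were -2.22 for SNa and -2.09 for SKF. *nes* lay above 0, at 0.50 for SNa and 0.28 for SKF. Of 8 fibroblast markers, 6 were higher in the SNa pool and 6 in the SKF pool, with sums of 23939 CPM in the SNa pool, 24473 in the SKF pool and 15149 in the control pool. Muscle markers, nearly all of them reads of *acta2*, summed to 5374 CPM in the SNa pool, 4946 in the SKF pool and 3327 in the control pool. Of the 4 muscle markers that passed the minimum, 2 were higher and 2 lower in the SNa pool, and 2 higher and 1 lower in the SKF pool. Lower in the SNa pool were *desma* and *ckma*, each with at most 66 reads in a pool. Epithelial markers, nearly all of them *krt4*, summed to 1165 CPM in the SNa pool, 1189 in the SKF pool and 1016 in the control pool. Markers of the eye lens summed to 3.52 CPM in the SNa pool, 2.47 in the SKF pool and 299.5 in the control pool, and endothelial markers to 128 CPM in the SNa pool, 125 in the SKF pool and 208 in the control pool. Within the endothelial sum *cldn5a* was lower, at -1.77 for SNa and -1.78 for SKF, whereas *flt1* lay at -0.11 for SNa and -0.14 for SKF and *cdh5* was higher in the SNa pool at 0.75. In pooled RNA, more cells of a type and more RNA per cell cannot be told apart, and the part of these cells in the results below was not tested.

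More integrin and adhesion genes were higher than lower in the SNa pool. Against the control pool, 12 of 40 members were higher and 4 were lower, whereas 12.4% of all 15892 gene symbols with that minimum were higher and 14.5% lower. The members' log2 fold changes ran from -1.57 (*parvb*) to 1.18 (*itgb2*), with a median of 0.23, beside a median of 0.01 over all symbols, and 24 of the 40 lay above 0. Higher members with a mean normalized count of at least 100 were *parvg*, *itga3a*, *itga8*, *itga1*, *itgav*, *itgb3b*, *itgb5*, *itga2.2* and *parvab*, and lower ones *parvb*, *itga3b* and *itgb8*.

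The SKF pool, set against the same control reads, had 16 of 40 members higher and 3 lower, whereas 16.4% of all symbols were higher and 14.3% lower. Log2 fold changes ran from -0.94 (*parvb*) to 1.13 (*itgb2*), with a median of 0.35, beside 0.04 over all symbols, and 27 of the 40 lay above 0. With a mean normalized count of at least 100, *itga3a*, *itga8*, *itga1*, *itga2.2*, *parvg*, *itgav*, *itgb5*, *itgb3b*, *tln2a*, *itgbl1* and *parvab* were higher, and *parvb* and *itga3b* were lower. Both comparisons use the same control pool, so likeness between them is not independent.

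**Figure D2:**
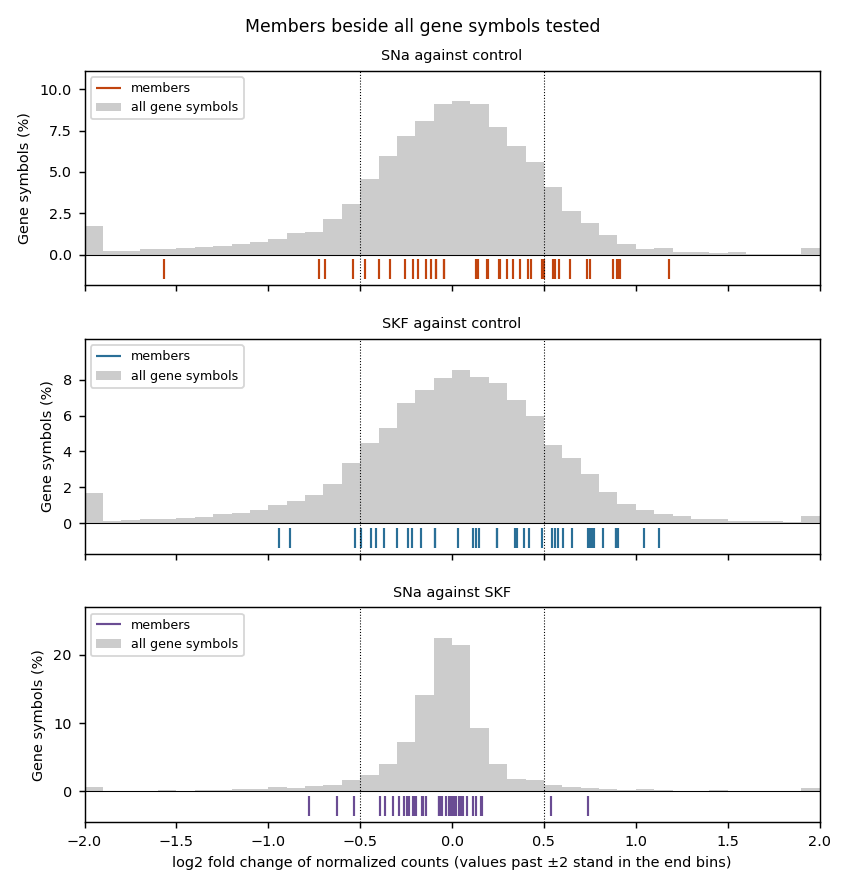
Log2 fold changes of the 40 members that passed the minimum (coloured strokes) below the distribution over all 15892 gene symbols (grey bars, percent of symbols per 0.1 of log2; values past 2 in either direction stand in the end bins), for SNa against control, SKF against control and SNa against SKF. Dotted lines mark 0.5 in either direction; the members' medians were 0.23, 0.35 and -0.06, beside 0.01, 0.04 and -0.03 over all symbols.

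Alpha subunits that recognise the RGD motif, a stretch of fibronectin and vitronectin, were higher in 2 of 3 cases in each treated pool. Their summed level was 2253 CPM in the SNa pool, 2322 CPM in the SKF pool and 1469 CPM in the control pool. Of all symbols, 12.4% were higher for SNa and 16.4% for SKF. *itgav*, the alpha V subunit, had 122857 reads in the SNa pool, 164679 in the SKF pool and 167104 in the control pool, or 1897 CPM in the SNa pool, 1899 in the SKF pool and 1130.0 in the control pool. It was higher in both treated pools, with a log2 fold change of 0.74 (0.72 to 0.75) for SNa and 0.74 (0.73 to 0.76) for SKF, that is 1.66-fold and 1.67-fold. *itga8*, which pairs with beta 1 to bind nephronectin, stood at 52.9 CPM in the SNa pool, 53.4 CPM in the SKF pool and 28.7 CPM in the control pool. Its log2 fold changes were 0.87 (0.78 to 0.97) for SNa and 0.89 (0.80 to 0.98) for SKF. *itga5*, the alpha subunit of the classical fibronectin receptor, was neither higher nor lower, at 303 CPM in the SNa pool, 369 CPM in the SKF pool and 310.2 CPM in the control pool, with log2 fold changes of -0.04 (-0.08 to -0.01) for SNa and 0.24 (0.21 to 0.27) for SKF. Platelet-type *itga2b* had 2 reads in the SNa pool, 8 in the SKF pool and 2 in the control pool and was not compared.

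The 4 beta subunits grouped here as alpha V partners lay on opposite sides of the control pool. Beta 1 is given below and is not counted in this group. *itgb3b* and *itgb5*, the beta 3 and beta 5 subunits of vitronectin receptors, were higher in both treated pools. *itgb3b* stood at 199 CPM in the SNa pool, 193 CPM in the SKF pool and 126 CPM in the control pool, with log2 fold changes of 0.64 (0.60 to 0.69) for SNa and 0.60 (0.56 to 0.65) for SKF. *itgb5* stood at 101 CPM in the SNa pool, 106 in the SKF pool and 67.2 in the control pool, with log2 fold changes of 0.58 (0.52 to 0.65) for SNa and 0.65 (0.59 to 0.71) for SKF. Against unigenes with nearby numbers, the *itgb5* values were 0.49 for SNa and 0.42 for SKF. *itgb6* and *itgb8* code for the subunits known from mammals to release TGF-beta from its latent form, beta 6 in epithelia and beta 8 in glia among other cells. *itgb6* had 25862 reads in the SNa pool, 34075 in the SKF pool and 77169 in the control pool, which is 399 CPM in the SNa pool, 393 in the SKF pool and 522 in the control pool. Its log2 fold changes of -0.40 (-0.43 to -0.37) for SNa and -0.42 (-0.44 to -0.39) for SKF lay below 0 but within the 0.5 that marks a lower gene. *itgb8* stood at 11.4 CPM in the SNa pool, 14.2 CPM in the SKF pool and 18.2 CPM in the control pool. It was lower in the SNa pool, at -0.69 (-0.86 to -0.52), whereas its value for SKF was -0.37 (-0.51 to -0.23). These *itgb8* unigenes had identities of 63.0% to 77.2%, and 1 of them, 19534, lay at 0.66 for SNa and 0.70 for SKF. With the unigenes named only in their protein description, given below, *itgb8* was lower in both pools, at -0.85 for SNa and -0.52 for SKF.

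The make-up of this subunit group differed between the pools. The 4 subunits together stood at 711 CPM in the SNa pool, 706 CPM in the SKF pool and 734 CPM in the control pool. Left out are unigenes named only in their protein description, which are given below. On these, *itgb3a* stood at 59.0 CPM in the SNa pool, 57.9 in the SKF pool and 35.3 in the control pool. Further *itgb8* reads stood at 31.6 CPM in the SNa pool, 39.7 in the SKF pool and 58.6 in the control pool. The shares below were not computed with them and would differ. Of the reads on the 4 subunits under the rule, *itgb6* took 56.2% (55.5 to 56.8%) in the SNa pool, 55.6% (55.1 to 56.2%) in the SKF pool and 71.1% (70.7 to 71.5%) in the control pool. *itgb3b* took 28.0% (27.4 to 28.6%) in the SNa pool, 27.3% (26.8 to 27.8%) in the SKF pool and 17.2% (16.9 to 17.6%) in the control pool. For *itgb5* the shares were 14.3% in the SNa pool, 15.0% in the SKF pool and 9.16% in the control pool. The parentheses give exact binomial (Clopper-Pearson) intervals, which cover counting error only. Transcripts of different length give different numbers of reads, so these shares can be compared between pools but not between subunits.

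**Figure D3:**
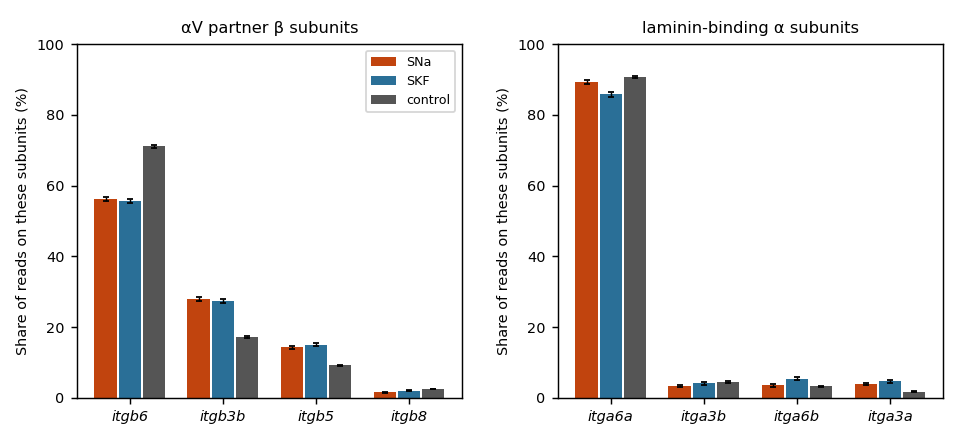
Share of reads, in percent, that each subunit took within the alpha V partner beta subunits (left) and the laminin-binding alpha subunits (right) in the SNa, SKF and control pools. Error bars are 95% exact binomial intervals for counting error; *itgb6* took 56.2% in the SNa pool, 55.6% in the SKF pool and 71.1% in the control pool, and *itga7*, with at most 9 reads in a pool, is counted but not drawn. Reads of *itgb3a* and *itgb8* on unigenes named only in their protein description are not counted.

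Collagen-binding alpha subunits were mostly higher, though the calls of *itga2.2* for SNa and of *itga11a* did not hold in every alternative below. Of 4 members, 3 were higher in the SNa pool and 3 in the SKF pool, with median log2 fold changes of 0.65 for SNa and 0.80 for SKF. The shares over all symbols were 12.4% higher for SNa and 16.4% higher for SKF. *itga2.2*, a copy of the alpha 2 collagen receptor subunit, stood at 399.7 CPM in the SNa pool, 461 CPM in the SKF pool and 269 CPM in the control pool. Its log2 fold changes were 0.56 (0.53 to 0.59) for SNa and 0.77 (0.74 to 0.80) for SKF. Measured against unigenes with nearby assembly numbers, the SNa value was 0.37, which lost the call. The *itga2.2* unigenes had identities of 62.1% to 74.8% to the zebrafish protein, so the gene drops out where those under 80% are left out. Of the reads on the collagen-binding alpha subunits under the rule, *itga2.2* took 90.8% in the SNa pool, 91.6% in the SKF pool and 91.6% in the control pool. Left out is *itga2.3*, another alpha 2 gene, named only in its protein description and given below. It stood at 115 CPM in the SNa pool, 131 in the SKF pool and 89.1 in the control pool. Its values were 0.35 for SNa and 0.55 for SKF. The *itga2.2* shares were not computed with it and would differ. *itga1*, the alpha 1 subunit that binds collagen IV and laminin, stood at 38.0 CPM in the SNa pool, 39.8 CPM in the SKF pool and 22.4 CPM in the control pool, with log2 fold changes of 0.75 (0.64 to 0.86) for SNa and 0.82 (0.72 to 0.92) for SKF. *itga11a*, whose mammalian counterpart is a fibrillar collagen receptor of mesenchymal cells, had only 70 reads in the SNa pool, 92 in the SKF pool and 84 in the control pool, and was higher in both treated pools, at 0.92 (0.23 to 1.60) for SNa and 0.89 (0.26 to 1.53) for SKF. On its highest unigene alone *itga11a* lay at 0.39 for SNa and 0.42 for SKF. *itga10*, with 86 reads in the SNa pool, 136 in the SKF pool and 226 in the control pool, lay between the limits.

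Laminin receptors, the integrins that anchor cells to basement membranes, had no common direction by count, with 1 of 4 alpha subunits higher and 1 lower in each treated pool. Of all symbols, 12.4% were higher and 14.5% lower for SNa, and 16.4% higher and 14.3% lower for SKF. The summed level of these alpha subunits lay below the control pool, at 300 CPM for SNa, 278 for SKF and 370 for control. Of those reads, *itga6a* took 89.3% in the SNa pool, 85.8% in the SKF pool and 90.7% in the control pool. *itga6a*, the alpha 6 subunit, had 17362 reads in the SNa pool, 20722 in the SKF pool and 49630 in the control pool, or 268 CPM in the SNa pool, 239 in the SKF pool and 336 in the control pool. Its log2 fold changes were -0.34 (-0.37 to -0.30) for SNa and -0.50 (-0.53 to -0.46) for SKF, the second just inside the limit. The 2 copies of the alpha 3 subunit lay on opposite sides of the control pool. *itga3a* stood at 11.7 CPM in the SNa pool, 12.9 CPM in the SKF pool and 6.25 CPM in the control pool, and was higher in both treated pools, at 0.90 (0.70 to 1.1) for SNa and 1.04 (0.86 to 1.22) for SKF. *itga3b* stood at 9.94 CPM in the SNa pool, 11.4 CPM in the SKF pool and 16.3 CPM in the control pool, and was lower in both, at -0.73 (-0.91 to -0.55) for SNa and -0.53 (-0.68 to -0.38) for SKF. *itga3a* rests on unigenes of 71.4% to 72.5% identity to its zebrafish protein and *itga3b* on unigenes of 84.3% to 84.4%. *itga6b* stood at 10.5 CPM in the SNa pool, 15.1 CPM in the SKF pool and 11.9 CPM in the control pool, with values of -0.19 (-0.37 to 0.00) for SNa and 0.34 (0.20 to 0.49) for SKF. *itgb4*, the beta 4 subunit that joins alpha 6 in hemidesmosomes, stood at 406 CPM in the SNa pool, 369.8 CPM in the SKF pool and 429 CPM in the control pool, with values of -0.09 (-0.12 to -0.06) for SNa and -0.22 (-0.25 to -0.19) for SKF.

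The beta 1 subunit, the common partner of most alpha subunits, lay above the control pool in both treated pools by less than the limit. *itgb1b* had 93592 reads in the SNa pool, 118252 in the SKF pool and 157176 in the control pool, or 1445 CPM in the SNa pool, 1364 in the SKF pool and 1063 in the control pool. Its log2 fold changes were 0.43 (0.41 to 0.45) for SNa and 0.35 (0.34 to 0.37) for SKF. The other copy, *itgb1a*, stood at 154 CPM in the SNa pool, 171 CPM in the SKF pool and 128 CPM in the control pool, with values of 0.26 (0.21 to 0.31) for SNa and 0.42 (0.37 to 0.46) for SKF. *itgb1b.1* had 24 reads in the SNa pool, 42 in the SKF pool and 42 in the control pool, and was called higher in the SKF pool at 0.76 (-0.18 to 1.71), an interval that takes in 0.

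Under the rule, subunits known from leukocytes were few in reads, apart from *itgb7*. *itgb2*, the beta subunit of all leukocytes in mammals, had 14 reads in the SNa pool, 18 in the SKF pool and 14 in the control pool. It was called higher in both treated pools, at 1.18 (-0.56 to 2.92) for SNa and 1.13 (-0.47 to 2.79) for SKF, with intervals that take in 0. *itgb7*, a lymphocyte homing subunit in mammals, stood at 81.6 CPM in the SNa pool, 84.8 CPM in the SKF pool and 64.3 CPM in the control pool, with values of 0.33 (0.26 to 0.40) for SNa and 0.39 (0.33 to 0.45) for SKF. Its unigenes had identities of 54.8% to 84.0% to the zebrafish protein, and the unigene with 56.1% of its normalized counts, 82712, had 73.5%. Under the rule *itga9*, an alpha subunit that binds tenascin, and *itga4*, a subunit of leukocytes and neural crest, had at most 32 reads in a pool. They were called higher in the SKF pool, *itga9* at 0.76 (-0.33 to 1.86) and *itga4* at 0.90 (-0.21 to 2.04), and *itga9* also in the SNa pool at 0.50 (-0.80 to 1.73), and these intervals take in 0. For *itga4* the rule took in 1 unigene, of 52.1% identity to a protein of *Ictalurus punctatus*. Most *itga4* reads lie on unigenes named only in their protein description, given below. Leukocyte markers, 6 found of 11, summed to 49.3 CPM in the SNa pool, 47.7 CPM in the SKF pool and 35.3 CPM in the control pool, *itgb2* included. Of the 5 that passed the minimum, 4 were higher in the SNa pool and 3 in the SKF pool. Of all symbols, 12.4% were higher for SNa and 16.4% for SKF. Besides *itgb2*, the marker *mpx* was called higher for SNa with an interval that takes in 0, at 0.55 (-0.003 to 1.08). Most of the summed marker level was *cd74a*, while the leukocyte gene *lcp1* had 0 reads in the SNa pool, 0 in the SKF pool and 4 in the control pool. The part of leukocytes in these values was not tested.

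**Figure D4:**
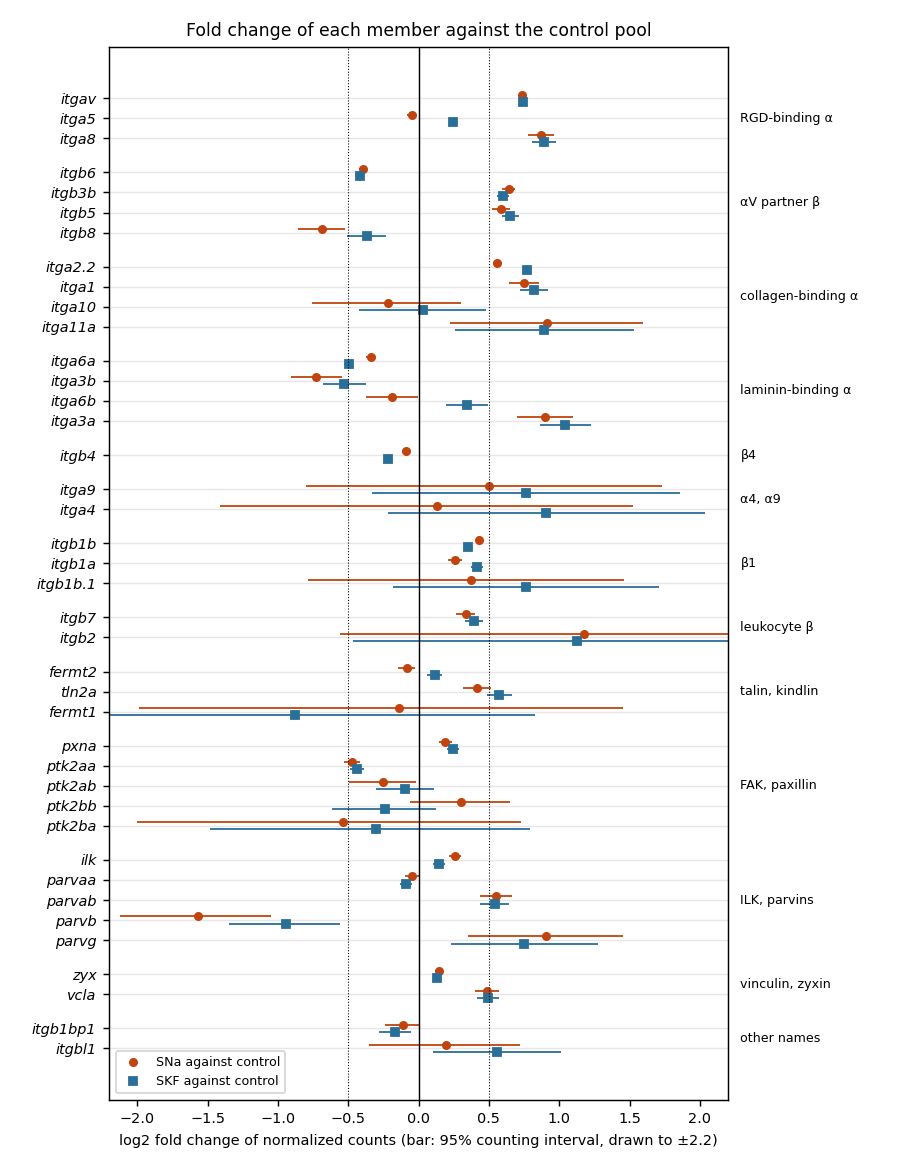
Log2 fold change of each member that passed the minimum, for SNa against control (circles) and SKF against control (squares), ordered by role, with 95% counting intervals as bars (drawn to 2.2 in either direction) and dotted lines at 0.5. Both comparisons use the same control pool; *itgav* lay at 0.74 for SNa and 0.74 for SKF, and *parvb* at -1.57 for SNa and -0.94 for SKF.

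Among the proteins under the rule that bind the integrin tails, *tln2a* lay above and *fermt2* close to the control pool. The talins *tln1* and *tln2b* are named only in their protein description and are given below. *tln1* lay at 0.53 for SNa and 0.49 for SKF, and *tln2b* at -0.04 for SNa and -0.06 for SKF. *tln2a*, a talin 2 gene, stood at 38.8 CPM in the SNa pool, 43.1 CPM in the SKF pool and 28.8 CPM in the control pool. Its value of 0.42 (0.31 to 0.52) for SNa lay within the limit, and that of 0.57 (0.48 to 0.66) for SKF made it higher, a call that was lost, at 0.33, against unigenes with nearby numbers. *fermt2*, which codes for kindlin-2, the widely expressed kindlin, stood at 97.6 CPM in the SNa pool, 112 CPM in the SKF pool and 103 CPM in the control pool, with values of -0.09 (-0.15 to -0.03) for SNa and 0.11 (0.06 to 0.17) for SKF. The epithelial kindlin *fermt1* had 10 reads in the SNa pool, 8 in the SKF pool and 25 in the control pool, and was called lower in the SKF pool at -0.88 (-2.96 to 0.83), an interval that takes in 0.

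The FAK gene *ptk2aa* lay below the control pool, and the sum for the scaffold paxillin lay above it although its largest unigene did not. *ptk2aa*, a gene of focal adhesion kinase (FAK), had 7003 reads in the SNa pool, 9570 in the SKF pool and 22028 in the control pool, or 108 CPM in the SNa pool, 110.4 in the SKF pool and 149 in the control pool. Its log2 fold changes of -0.47 (-0.53 to -0.42) for SNa and -0.44 (-0.49 to -0.39) for SKF lay just inside the limit, and against unigenes with nearby numbers they were -0.55 for SNa and -0.64 for SKF. *pxna*, a gene of paxillin, which FAK phosphorylates, stood at 176 CPM in the SNa pool, 182 CPM in the SKF pool and 153 CPM in the control pool, with values of 0.19 (0.14 to 0.24) for SNa and 0.24 (0.20 to 0.29) for SKF. The other FAK copy *ptk2ab* had 406 reads in the SNa pool, 606 in the SKF pool and 1098 in the control pool, with values of -0.26 for SNa and -0.09 for SKF. *ptk2bb*, a gene of the calcium-sensitive relative PYK2, had 206 reads in the SNa pool, 189 in the SKF pool and 379 in the control pool, with 0.30 (-0.06 to 0.65) for SNa and -0.24 (-0.61 to 0.12) for SKF, and *ptk2ba* at most 46 reads in a pool, called lower in the SNa pool at -0.54 with an interval that takes in 0 and, on its highest unigene alone, a value of 1.18.

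ILK and the parvins, which form a complex behind beta 1 and beta 3 integrins, had the widest spread of log2 fold changes of the role groups. *ilk* itself stood at 190.3 CPM in the SNa pool, 175 CPM in the SKF pool and 158 CPM in the control pool, with log2 fold changes of 0.26 (0.22 to 0.30) for SNa and 0.14 (0.10 to 0.19) for SKF. The 2 copies of alpha-parvin differed. *parvaa*, on 1 unigene, stood at 148 CPM in the SNa pool, 143 CPM in the SKF pool and 152 CPM in the control pool, with values of -0.04 (-0.09 to 0.00) for SNa and -0.09 (-0.14 to -0.05) for SKF. *parvab* stood at 33.4 CPM in the SNa pool, 33.1 CPM in the SKF pool and 22.6 CPM in the control pool and was higher in both, at 0.55 (0.44 to 0.66) for SNa and 0.54 (0.44 to 0.65) for SKF. Beta-parvin, *parvb*, had 70 reads in the SNa pool, 144 in the SKF pool and 470 in the control pool. At -1.57 (-2.12 to -1.05) for SNa and -0.94 (-1.35 to -0.56) for SKF it was lower in both, 0.337-fold and 0.520-fold of the control level. *parvg*, the parvin of blood cells in mammals, had 106 reads in the SNa pool, 127 in the SKF pool and 128 in the control pool and was higher in both, at 0.91 (0.35 to 1.46) for SNa and 0.75 (0.23 to 1.28) for SKF. Its unigene 115302 holds 84.6% of its normalized counts, and without it the SNa value was 0.30.

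The plaque proteins that tie adhesions to actin lay above the control pool by less than the limit. *zyx*, zyxin, which gathers at adhesions under tension, had 47477 reads in the SNa pool, 62744 in the SKF pool and 97413 in the control pool, or 733 CPM in the SNa pool, 724 in the SKF pool and 659 in the control pool, with values of 0.14 (0.12 to 0.16) for SNa and 0.13 (0.11 to 0.15) for SKF. Under the rule *vcla*, vinculin, which ties talin to actin, stood at 56.2 CPM in the SNa pool, 56.1 CPM in the SKF pool and 39.7 CPM in the control pool. Its values of 0.49 (0.40 to 0.57) for SNa and 0.49 (0.41 to 0.57) for SKF lay just inside the limit. Most *vcla* reads lie on unigenes named only in their protein description, given below. With them its values were 0.34 for SNa and 0.27 for SKF. Of the other names that match, *itgb1bp1*, a protein that binds the beta 1 tail, had values of -0.11 (-0.24 to 0.01) for SNa and -0.17 (-0.28 to -0.06) for SKF, and *itgbl1*, a secreted protein that resembles beta subunits but is no receptor subunit, had 92 reads in the SNa pool, 158 in the SKF pool and 182 in the control pool and was higher in the SKF pool at 0.56 (0.11 to 1.01).

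The treated pools were also set against each other. In the SNa pool against the SKF pool, 2 of 40 members were higher and 3 were lower, whereas 4.4% of all symbols were higher and 6.92% lower, so the members' counts were close to the shares over all symbols, and the median was -0.06 beside -0.03 over all symbols. *itga6b* was lower in the SNa pool than in the SKF pool at -0.53 (-0.72 to -0.34), with 680 and 1312 reads. *parvb* was lower as well, at -0.62 (-1.25 to -0.02), and *ptk2bb* higher, at 0.54 (0.12 to 0.96). Without the unigenes of a run of high assembly numbers *ptk2bb* lay at 0.18, and against unigenes with nearby numbers *parvb* lay at -0.46 and *itga6b* at -0.49, so that each lost its call. *itga4* (under the rule 14 reads in the SNa pool and 32 in the SKF pool) and *fermt1* (10 and 8 reads) also passed the limit, with intervals that take in 0. Of the members with over 10000 reads in each treated pool, *itga5* and *itga2.2* lay furthest from 0, at -0.29 (-0.32 to -0.25) and -0.21 (-0.24 to -0.18), and *itgav* was at -0.01 (-0.02 to 0.01). The 2 agents were given at different doses.

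Most members were assembled in several pieces, whose values were not always alike. The 148 unigenes matched zebrafish proteins in 146 cases, with a median identity of 90.2% (lowest 45.1%, highest 99.2%), and a member had a median of 3 unigenes. The goldfish genome was doubled after its split from the zebrafish line, so 2 unigenes on 1 zebrafish name can be 2 goldfish genes, and reads of near-identical copies may have been split between them. Of 30 members with at least 2 unigenes that passed the minimum, 14 had all of them above 0 for SNa, 4 all below and 12 on both sides; for SKF these were 16, 5 and 9. The 4 unigenes of *itgav* lay between 0.68 and 0.93 for SNa and between 0.65 and 1.04 for SKF, and *itgb1b* rested on 1 unigene with 99% of its normalized counts.

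Some sums hide unlike pieces. For *pxna* the unigene with most reads, 30682, had 3572 reads in the SNa pool, 4673 in the SKF pool and 8757 in the control pool, with values of -0.11 for SNa and -0.14 for SKF. Unigene 83333 had 2401 reads in the SNa pool, 3470 in the SKF pool and 3239 in the control pool, with 0.75 for SNa and 0.86 for SKF. Both match the same zebrafish paxillin, at 90.2% and 73.7% identity. The other *pxna* unigenes at 90.2%, 132450 and 83230, lay at 0.09 and 0.34 for SNa and at 0.06 and 0.47 for SKF. Those at 62.6% (11229, 57873 and 138325) lay between 0.33 and 0.47 for SNa and between 0.59 and 0.65 for SKF. For *itga6a*, 3 unigenes of 88.8% to 89.9% identity lay between -0.51 and -0.31 for SNa and between -0.71 and -0.48 for SKF. The remaining *itga6a* unigene, 83752, matched at 45.1% and lay at 0.36 for SNa and 0.34 for SKF; with identities under 80% left out, *itga6a* was lower in the SKF pool at -0.56. For *itgb4*, unigene 25899, which covers the C-terminal end of the protein, lay at -0.54 for SNa and -0.75 for SKF, whereas the other 2 lay at -0.02 and 0.05 for SNa and at -0.12 and -0.08 for SKF. For *itgb6* the unigene with most reads, 127493, passed the limit at -0.51 for SNa and -0.53 for SKF.

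**Figure D5:**
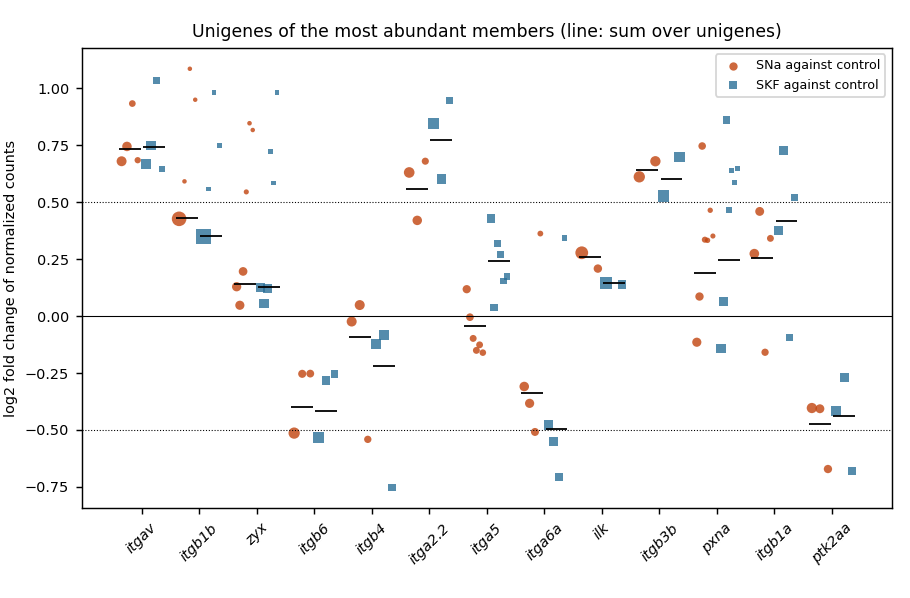
Log2 fold changes of the single unigenes of the most abundant members with more than 1 unigene, for SNa against control (circles) and SKF against control (squares), with point area growing with the unigene's share of the member's normalized counts and a black line at the value of the sum. Only unigenes with a mean normalized count of at least 100 are drawn; the *pxna* unigenes lay between -0.11 and 0.75 for SNa and between -0.14 and 0.86 for SKF.

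Further unigenes carry a matching gene only in the description of their protein and not in the gene name column that the rule reads. They were added after the data were seen. There were 32 of them, for 8 genes, of which 4 are new to the set. Talin 1, *tln1*, the widely expressed talin, had 14353 reads in the SNa pool, 18585 in the SKF pool and 22486 in the control pool, with values of 0.53 (0.49 to 0.57) for SNa and 0.49 (0.45 to 0.53) for SKF. *tln2b* had 1741 reads in the SNa pool, 2285 in the SKF pool and 4054 in the control pool, with -0.04 (-0.16 to 0.08) for SNa and -0.06 (-0.17 to 0.04) for SKF. *itgb3a*, the other beta 3 gene, stood at 59.0 CPM in the SNa pool, 57.9 CPM in the SKF pool and 35.3 CPM in the control pool, with 0.73 (0.64 to 0.82) for SNa and 0.71 (0.63 to 0.79) for SKF. *itga2.3* had 0.35 (0.30 to 0.41) for SNa and 0.55 (0.50 to 0.60) for SKF.

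For other genes these unigenes hold most of the reads. *vcla* gained 35429 reads in the SNa pool, 44885 in the SKF pool and 64086 in the control pool, and its values became 0.34 for SNa and 0.27 for SKF. *itga4* gained 1714 reads in the SNa pool, 3308 in the SKF pool and 2896 in the control pool, and its values became 0.42 for SNa, 0.95 for SKF and -0.53 for SNa against SKF. *itgb8* gained 2049 reads in the SNa pool, 3440 in the SKF pool and 8664 in the control pool, and its values became -0.85 for SNa and -0.52 for SKF, which made it lower in both pools. With all of these, 47 genes matched and 44 passed the minimum.

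The matrix proteins that integrins bind were mostly higher in both treated pools. Of 35 ligand genes that passed the minimum, 23 were higher and 2 lower in the SNa pool, with a median of 0.60, and 25 were higher and 2 lower in the SKF pool, with a median of 0.73. Over all symbols, 12.4% were higher and 14.5% lower for SNa, and 16.4% higher and 14.3% lower for SKF. Lower in both was *col2a1a*, at -0.97 for SNa and -0.95 for SKF. *spp1* was lower in the SNa pool at -0.75, and *nid2a* in the SKF pool at -0.52. The nephronectin gene *npnt* had -0.13 (-0.20 to -0.06) for SNa and -0.25 (-0.32 to -0.19) for SKF. The vitronectin gene *vtna* had 0 reads in the SNa pool, 2 in the SKF pool and 18 in the control pool, below the minimum. Fibronectin is the ligand of alpha 5 and alpha V receptors, and its gene *fn1b* stood at 20118 CPM in the SNa pool, 20918 CPM in the SKF pool and 10240.0 CPM in the control pool, with values of 0.96 (0.96 to 0.97) for SNa and 1.02 (1.02 to 1.03) for SKF. The type I collagen chain *col1a1a* stood at 13153 CPM in the SNa pool, 13541 in the SKF pool and 7924 in the control pool, with 0.72 (0.71 to 0.73) for SNa and 0.77 (0.76 to 0.77) for SKF, and its partner *col1a2* had 0.57 (0.56 to 0.57) for SNa and 0.66 (0.65 to 0.67) for SKF. Of 10 laminin subunits 5 were higher in the SNa pool and 7 in the SKF pool, and 0 lower in either, with summed levels of 2612 CPM in the SNa pool, 2841 CPM in the SKF pool and 1709.5 CPM in the control pool. Among those called higher for SKF, *lamb4* had only 16 reads in the SKF pool and 16 in the control pool. Its value was 0.76 (-0.85 to 2.37), an interval that takes in 0. *col1a1a*, *col1a2* and *postnb* stand in the fibroblast marker list too, and the part of fibroblasts in these levels was not tested.

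Other partners of adhesions are given beside the shares over all symbols, of which 12.4% were higher and 14.5% lower for SNa and 16.4% higher and 14.3% lower for SKF. Of 46 adhesion complex partners, adaptors, kinases, tensins and tetraspanins that work with integrins, 4 were higher and 3 lower in the SNa pool and 5 higher and 5 lower in the SKF pool, with medians of 0.03 for SNa and 0.07 for SKF. The tetraspanin *cd81a* had 0.37 (0.35 to 0.40) for SNa and 0.33 (0.31 to 0.36) for SKF, the heparan sulfate proteoglycan *sdc4* 0.16 (0.13 to 0.20) for SNa and 0.18 (0.15 to 0.21) for SKF, and *lims1*, whose protein PINCH binds ILK, 0.29 (0.25 to 0.32) for SNa and 0.32 (0.29 to 0.35) for SKF. Of 35 actin linkers, 4 were higher and 5 lower in the SNa pool and 5 higher and 3 lower in the SKF pool, with medians of 0.21 for SNa and 0.26 for SKF. Filamin A (*flna*) stood at 7465 CPM in the SNa pool, 7349 CPM in the SKF pool and 5375 CPM in the control pool, with 0.46 (0.45 to 0.47) for SNa and 0.44 (0.44 to 0.45) for SKF. Alpha-actinin 1 (*actn1*) had 0.43 (0.41 to 0.44) for SNa and 0.36 (0.34 to 0.38) for SKF, and palladin (*palld*) 0.46 (0.44 to 0.48) for SNa and 0.64 (0.62 to 0.66) for SKF.

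Fold changes in these tables also varied with the number of the unigene, which the assembly gave. Over all unigenes that passed the minimum, a run of high numbers had a median of 0.24 on the log2 scale for SNa, beside -0.13 over the others, whereas for SKF these 2 medians were -0.04 and 0.00. SKF drifted elsewhere. By stretches of 5000 numbers from 55000 to 114999, medians lay between 0.05 and 0.46 for SKF and between -0.28 and 0.11 for SNa. From 35000 to 54999 the medians of both pools lay between -0.54 and -0.39, and at the highest numbers between -1.48 and -0.99. No alternative left these stretches out. Of the members' unigenes, 30 lay in the run of high numbers first named and held 29.7% of the members' normalized counts. Against the median of their own stretch of 5000 unigene numbers, 77 of 120 member unigenes were above it for SNa and 86 of 120 for SKF. The cause of the drift along the numbers was not tested.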

How the data were processed

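RNA of cultured goldfish RGCs was sequenced as paired reads, and the authors assembled a transcriptome of unigenes de novo and named unigenes by their best protein match. Which program counted the reads per unigene was not stated in any source used here. The labels name 4 control cultures, while the study's methods state 3, and no source says that cultures came from separate animals. The authors pooled each group into 1 deposited value per unigene, a signal made of read counts divided by DESeq size factors, which was turned back into reads (100% of values were whole within 0.01). The deposited tables also hold the identity to the protein hit in percent, used as is, and the authors' own fold changes and p-values, which were not used; 0 columns of other series were found.

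Reads were summed per gene symbol over the annotated sheets, so a symbol can hold several goldfish copies. Fold changes were computed on the values with the authors' scaling (python 3.11.15, pandas 2.3.3, numpy 2.4.6, scipy 1.17.1, figures with matplotlib 3.10.9). Intervals are exact binomial (Clopper-Pearson) at 95%, on reads divided by 2 because most read numbers were even, as paired reads counted by mate would be; between 74.8% and 79.7% were even. A count of 0 allows up to 3 reads, or 0.0463 CPM in the SNa pool, 0.0346 CPM in the SKF pool and 0.0203 CPM in the control pool. The rule for members given in full took the 12 with the highest mean normalized count, up to 8 per direction and comparison past a log2 fold change of 0.5 with a mean of at least 100, the most abundant of each role, and up to 3 genes of each list; other members are named so that all are accounted for. Code was tested on simulated data. The members, lists and tests were chosen with earlier results of these data known. Alternatives changed the scaling, the minimum, the fold, the identity, the unigenes summed and the joining of gene copies.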

Additional observations from a re-analysis of the deposited data

How the results depend on the processing

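No paired analysis was possible because each group was deposited as 1 pooled value, and for the same reason leaving out a replicate could not be run. The members' median log2 fold change stayed between 0.19 and 0.28 for SNa against control, between 0.24 and 0.40 for SKF against control and between -0.09 and 0.00 for SNa against SKF under every alternative tried. The one call that changed its direction was that of *ptk2ba* for SNa, which lay at 1.18 on its highest unigene alone. Counts that moved by over 1.5 times were these. With a log2 limit of 1, 1 member was higher and 1 lower in the SNa pool and 2 higher and 0 lower in the SKF pool, and 0 were higher and 0 lower in SNa against SKF. The lower members in the SNa pool were 2 with unigenes of under 80% identity left out and 2 with gene copies joined. The lower members in the SKF pool were 5 without a minimum and 6 relative to unigenes with nearby numbers. In SNa against SKF, higher members were 1 with the highest unigene alone, 4 without a minimum, 1 with a minimum of 100, 1 without the run of high unigene numbers and 1 with copies joined, and lower members were 7 without that run. Adding names from the protein description, an alternative chosen after seeing the data, gave 14 higher and 4 lower members for SNa and 18 higher and 4 lower for SKF. Among single members, *pxna* lay at -0.11 for SNa and -0.14 for SKF on its highest unigene alone, *itga5* at 0.12 for SNa, *ptk2bb* at 0.69 for SNa, and *ptk2bb* at -0.15 for SNa without the run of high numbers. Against unigenes with nearby numbers, *itga6a* was lower in the SKF pool at -0.64. Without the run of high numbers *itga11a* lay at 0.38 for SNa, and *itga10* at 0.62 for SNa and 1.48 for SKF, beside -1.02 for SNa and -1.16 for SKF on its highest unigene alone. *itgbl1* lay at 0.47 for SKF on its highest unigene alone. Read depth limits *itgb2*, *itga9*, *itgb1b.1*, *fermt1* and *ptk2ba*, which had at most 46 reads in a pool. The few reads of *itga4* under the rule come from 1 poorly matched unigene, and most of its reads lie outside the rule.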
